A study of Danio rerio with 19 samples.

Results

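The comparison set 4 libraries of zebrafish larvae (Danio rerio) kept in atorvastatin at 100 ng/L (AVS low, replicates 1, 2, 4 and 5) against 4 libraries of larvae kept in the control medium, ERM (control, replicates 1 to 4). These are 8 of the 19 libraries of the series, taken by their labels, and every gene of their shared count table was used. Atorvastatin at 1 µg/L (AVS high, n = 4) and the insecticide afidopyropen at 100 ng/L (Afid low, n = 3) serve below as side-by-side values. All of them are poly(A) RNA of whole larvae. The sources used here do not give the age, the strain or the number of larvae per library. Per the series' design text, 4 of 5 replicates of a group were sequenced. Nothing in the labels says whether replicates came from separate spawns or vessels, so a p-value here speaks of the spread among the libraries only, and that spread may be technical.

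Atorvastatin is a statin. Statins block HMG-CoA reductase, the enzyme that makes mevalonate, from which cells build cholesterol, coenzyme Q and the isoprenoid lipids that anchor some signalling proteins to membranes. When sterol in the endoplasmic reticulum is low, the SREBP transcription factors move to the nucleus and switch on genes of sterol and fatty acid synthesis and of lipoprotein uptake, among them HMG-CoA reductase itself and the low-density lipoprotein receptor. Larval zebrafish make and take up sterol in the liver, the intestine and the yolk syncytial layer.

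Counts in genes ran from 9.91 to 16.9 M reads in AVS low (13.5 ± 3.37, SD, n = 4) and from 13.2 to 18.6 M reads in the control (15.5 ± 2.28, SD, n = 4). Transcripts of organs a larva should hold were present in the authors' deposited FPKM (AVS low mean, then control mean): the skin keratin krt4 at 2281 and 1937, the trypsin gene prss1 of the pancreas at 3217 and 3140, fabp10a of the liver at 737 and 957, vil1 of the intestine at 35.7 and 22.4, and elavl3 of neurons at 48.1 and 64.7. In these bulk libraries, fewer cells of a type and less RNA per cell cannot be told apart. Control replicate 2 stood apart: its score for exocrine pancreas genes (the median over the list's genes of log2 CPM, each gene centred over the 8 libraries) was −2.04 where the remaining control libraries had −0.05 to 0.71, and its intestine score was −2.06 where they had −0.07 to 0.47. Control replicate 4 had the highest score for cytosolic ribosomal proteins (0.74) and AVS low replicate 5 the lowest (−0.84). AVS low replicate 4 lay nearest to the control for many genes below.

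In AVS low, transcripts of a fatty acid desaturase (fads2), an elongase (elovl6l), type I collagen (col1a1a), elastin (elnb), occludin b (oclnb), a nidogen (nid2a), growth hormone (gh1), 3 trypsin-type proteases and 5 of the 9 zona pellucida domain genes tested on chromosome 12 rose by the DESeq2 test, and those of the cone opsin kinase grk1b and of txndc9 fell. Genes of sterol synthesis, the pathway that the drug blocks, were not among the called ones. Collagens as a list had 23 of 24 members on the higher side, and photoreceptor genes 43 of 52 on the lower. No gene passed edgeR's quasi-likelihood test after Benjamini-Hochberg adjustment: 0 of 19267 genes tested, 0% of them, with a smallest adjusted p of 0.351, and 0 by limma-voom with a smallest adjusted p of 0.396. At an unadjusted edgeR p under 0.05, 991 genes (5.14%) were higher and 958 (4.97%) lower. The authors' deposited table, made with DESeq2, called 37 genes higher (0.144% of 25627) and 6 lower (0.0234%), and DESeq2 run here called the same 43 genes. The total of 25627 includes low-count genes that DESeq2 run here gave no adjusted p and so could not call. Of these 43, 41 were tested by edgeR. In 36 of the 41, every AVS low library lay on one side of every control library. Over all genes tested this held for 408 on the higher side (2.12%) and 437 on the lower (2.27%). The 43 were called for their difference between these same libraries, so the 36 describe them and are no further support. Each of the 43 kept its sign when any 1 library was left out. Genes called for their difference in these libraries could hardly turn, so this does not show that the calls are stable. DESeq2 called 3 genes when AVS low replicate 2 was left out and 11 with replicate 5 of that group out. It called 796 with AVS low replicate 4 out and 62 with replicate 1 of that group out. Of the 43, 3, 8, 40 and 30 were among these calls, in the same order. Leaving out control libraries gave 29 calls for replicate 1, 9 for replicate 2, 14 for replicate 3 and 43 for replicate 4. Among these calls were 16, 7, 9 and 21 of the 43 genes. The zona pellucida genes si:dkey-239b22.1 and zgc:153932 and the gene si:dkey-239h2.3 were called each time. Of genes described below, fads2 and col1a1a were called in 6 of these 8 runs and gh1 and elovl6l in 3. The genes grk1b, elnb, nid2a, oclnb and grhl3 were called in 2, and klf2b, ptprb and tmprss4a in 1. In what follows, per-library values are CPM (read counts relative to the TMM-scaled library size), given for AVS low in the order of replicates 1, 2, 4 and 5 and for the control in the order 1 to 4, and fold changes are edgeR's log2 values of AVS low over control with their standard error (SE).

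**Figure D1:**
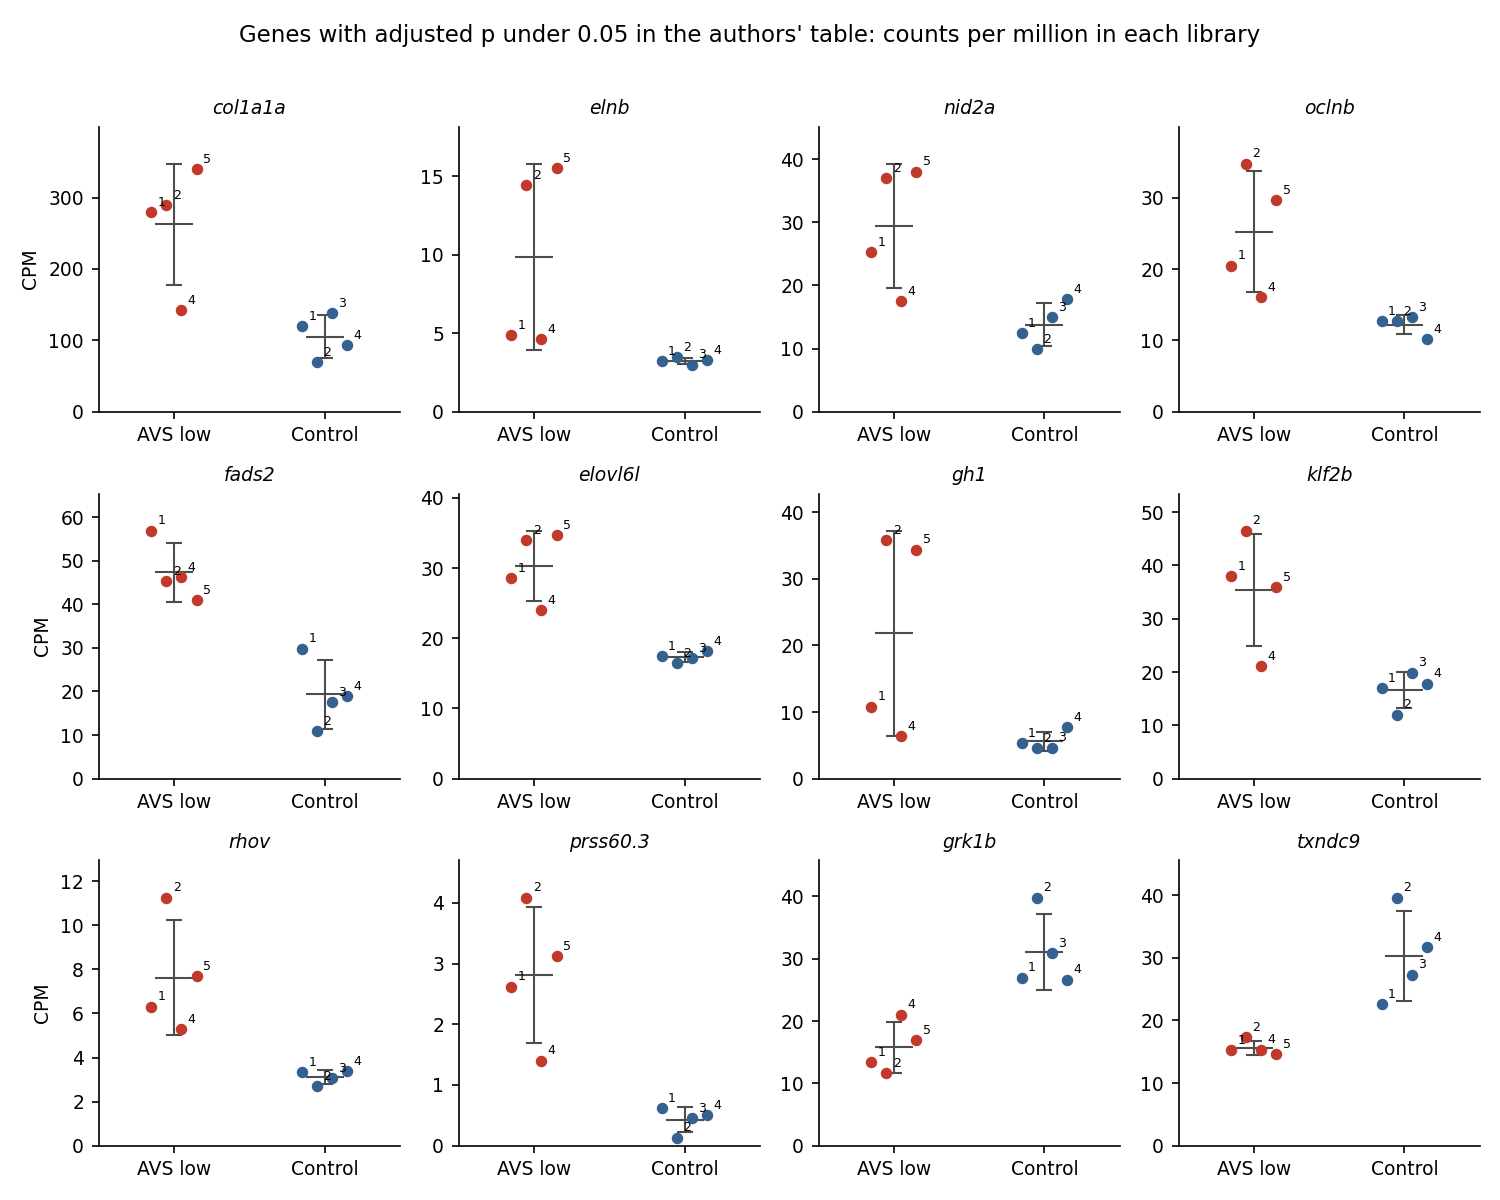
CPM per library (vertical axis, linear, from 0) of 12 genes called in the authors' deposited table, AVS low at the left and control at the right of each panel. Numerals are replicate numbers, bars mean ± SD (n = 4 each). For fads2 the AVS low libraries sit between 40.9 and 56.9 CPM and the control libraries between 10.9 and 29.8; for gh1 and nid2a the groups overlap.

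The statin's own pathway held no called gene. HMG-CoA reductase is encoded by hmgcra and hmgcrb. The first had 1.28, 1.57, 0.659 and 1.34 CPM in AVS low, against 0.370, 0.924, 0.0750 and 0.503 CPM in the control (log2 fold change 1.35, SE 0.60, edgeR adjusted p = 0.486). AVS low replicate 4 lay within the control range, and the count was low in every library. The second, far more abundant, had 52.4, 54.1, 41.2 and 45.7 CPM in AVS low, against 45.3, 43.3, 41.4 and 47.0 CPM in the control (0.13, SE 0.15), and the groups overlapped. HMG-CoA synthase, hmgcs1, had 19.7, 22.3, 16.4 and 20.6 CPM in AVS low, against 18.8, 15.7, 16.1 and 17.0 CPM in the control (0.22, SE 0.17). Squalene epoxidase, sqlea, had 3.22, 2.2, 1.73 and 3.57 CPM in AVS low, against 1.36, 2.31, 1.13 and 0.566 CPM in the control (1.00, SE 0.45), with overlap through control replicate 2. Over the 20 tested members of sterol synthesis, 14 had higher values and 6 lower. Of these, 2 (10%) had an unadjusted p under 0.05 on the higher side, hmgcra and sqlea, and none on the lower side. Over all genes tested, 5.14% were higher and 4.97% lower at that p. The list's median log2 fold change was 0.28, against −0.01 over all genes. It was 0.12 without control replicate 2 and 0.18 with AVS low replicate 5 out. Squalene synthase, fdft1, was at 0.60 (SE 0.30), lanosterol synthase, lss, at 0.30 (SE 0.55), and farnesyl diphosphate synthase, fdps, at −0.28 (SE 0.21).

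Among receptors and sensors of sterol, ldlrb, a receptor for low-density lipoprotein, had 76.9, 73.1, 37.9 and 47.9 CPM in AVS low, against 36.9, 20.3, 26.3 and 40.4 CPM in the control (log2 fold change 0.93, SE 0.26). Only AVS low replicate 4 fell within the control range. Its paralog ldlra had 90.5, 129, 111 and 143 CPM in AVS low, against 130, 63.8, 131 and 124 CPM in the control (0.08, SE 0.23). Here control replicate 2 was the low library, and the value was −0.12 without it, and −0.03 when AVS low replicate 5 was dropped instead. The sterol-regulated factor srebf2 had 144, 119, 65.5 and 95.1 CPM in AVS low, against 90.3, 63.9, 68.4 and 63.6 CPM in the control (0.57, SE 0.23), again with AVS low replicate 4 inside the control range. Of the 17 members of sterol sensing and uptake tested, 12 had higher values. On that side, 3 (17.6%), ldlrb, srebf2 and the endocytic receptor lrp1ab (0.47, SE 0.19), had an unadjusted p under 0.05. The share of all genes higher at that p was 5.14%. The list's median was 0.32. The sterol transporter of lysosomes npc1 was at 0.41 (SE 0.19) and the escort protein scap at 0.08 (SE 0.25). The gene insig1, whose product holds SREBPs in the endoplasmic reticulum, had 2, 0, 1 and 0 reads in AVS low and 0 reads in every control library, too few to compare. In sterol efflux and bile acid genes, 16 of 23 had higher values (median 0.16, from −0.02 without control replicate 2, whose score for the list was −1.16, to 0.30 without control replicate 1). The cholesterol exporter abca1b was at 0.92 (SE 0.37) and the bile salt pump abcb11a at 0.95 (SE 0.43), both lowest in control replicate 2.

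Fatty acid synthesis held 2 of the called genes among its 22 members tested, where 0.144% of all genes were called higher. The desaturase fads2 (chromosome 25, 4133488 to 4148719, minus strand, on a genome build that the sources used here do not name), which inserts double bonds on the way to long polyunsaturated fatty acids, had 56.9, 45.4, 46.2 and 40.9 CPM in AVS low, against 29.8, 10.9, 17.6 and 18.9 CPM in the control. Every AVS low library was above every control library, with control replicate 2 the lowest, and the log2 fold change was 1.29 (SE 0.26; adjusted p = 0.00784 in the authors' deposited table). The elongase elovl6l (chromosome 13, 21666521 to 21672131, minus strand) had 28.5, 33.9, 24.0 and 34.7 CPM in AVS low, against 17.5, 16.5, 17.2 and 18.2 CPM in the control. The control libraries lay close together and all AVS low libraries above them (0.80, SE 0.17; adjusted p = 0.0212 in the authors' deposited table). The stearoyl-CoA desaturase scd also kept the groups apart, with 3.96, 4.15, 3.13 and 3.48 CPM in AVS low, against 3.08, 2.31, 2.4 and 1.32 CPM in the control (0.69, SE 0.33). Its paralog scdb was on the other side, with 96.7, 76.0, 135 and 103 CPM in AVS low, against 123.03, 188, 141 and 122 CPM in the control (−0.48, SE 0.20).

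The lipogenic factor srebf1 had 116, 156, 108 and 130 CPM in AVS low, against 109, 56.5, 90.7 and 80.3 CPM in the control (log2 fold change 0.60, SE 0.20), with AVS low replicate 4 just inside the control range. Fatty acid synthase, fasn, had 95.8, 137, 89.9 and 110 CPM in AVS low, against 98.9, 68.2, 88.8 and 71.4 CPM in the control (0.40, SE 0.18). Acetyl-CoA carboxylase, acaca, which makes the malonyl-CoA used by fatty acid synthase, was at 0.77 (SE 0.31), and the elongases elovl7a and elovl7b at 1.12 (SE 0.44) and 0.80 (SE 0.34). Of 22 members tested, 17 had higher values and 5 lower. An unadjusted p under 0.05 was reached by 7 (31.8%) on the higher side and by 2 (9.09%), scdb and the ATP citrate lyase gene aclyb (−0.57, SE 0.26), on the lower. Among all genes these shares were 5.14% and 4.97%. The list's median was 0.55, and 0.33 without control replicate 2. The reverse pathway, fatty acid oxidation, had 16 of 24 members higher, a median of 0.10 (−0.02 without control replicate 2, −0.01 without AVS low replicate 1, and up to 0.18 without control replicate 3) and 1 member with an unadjusted p under 0.05, the acyl-CoA dehydrogenase acadl (−0.88, SE 0.33).

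**Figure D2:**
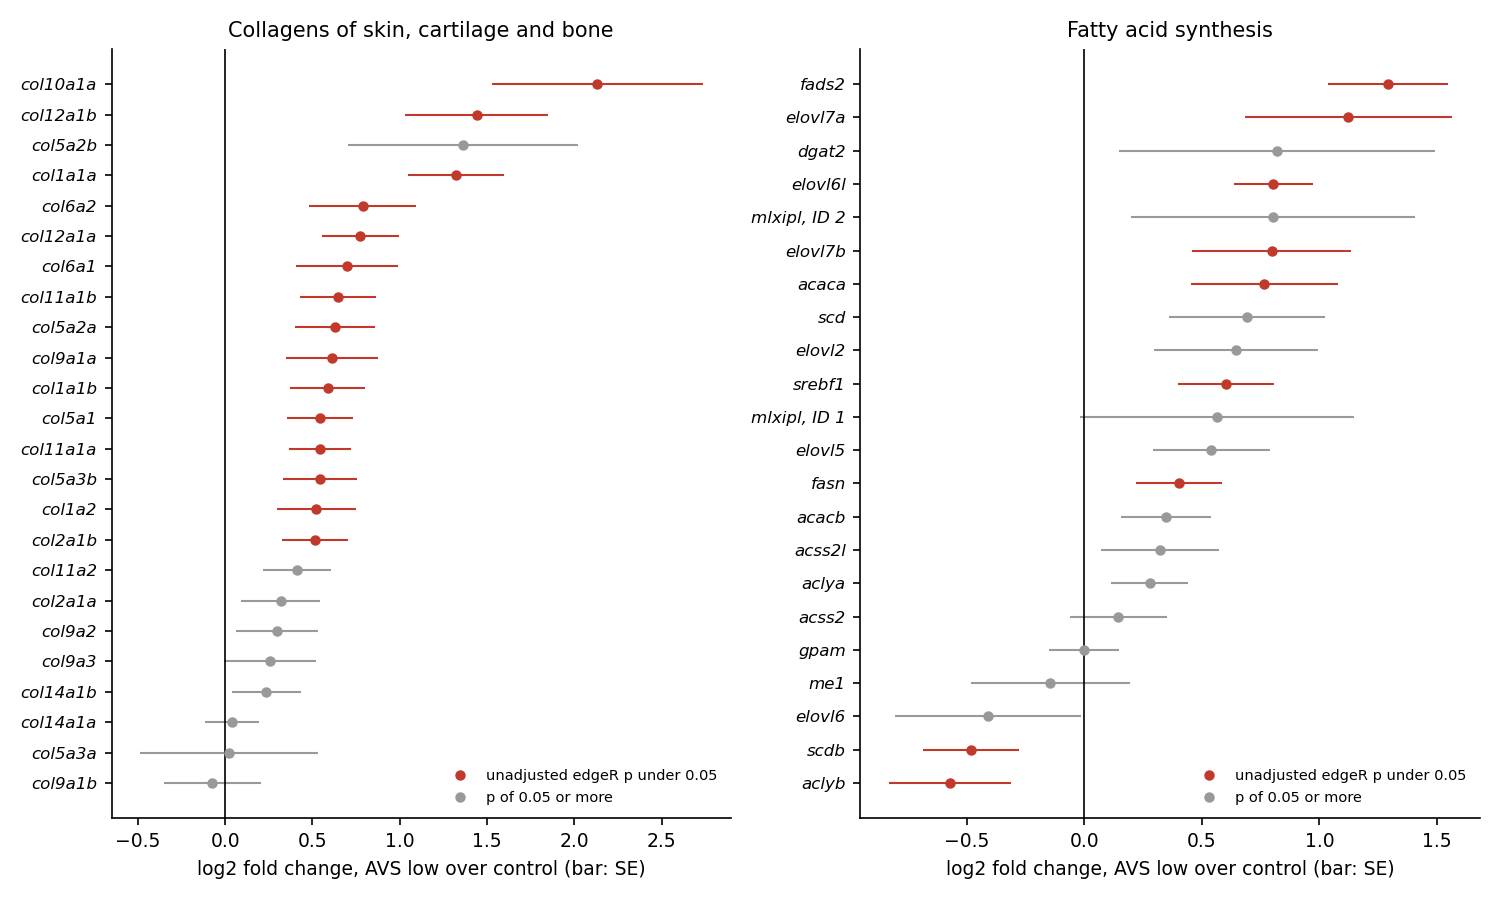
Log2 fold change of AVS low over control (horizontal axis) of each tested member of the collagen list and of the fatty acid synthesis list, with bars of 1 SE from the edgeR fit (n = 4 each). Red points have an unadjusted p under 0.05. Of the collagens 23 of 24 lie above 0, and of the fatty acid genes 17 of 22.

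The called genes included col1a1a of the collagen list and, outside any list, the matrix genes elnb and nid2a. Type I collagen is the main fibre of skin, bone and tendon, and its chain col1a1a (chromosome 3, 23221047 to 23239458, plus strand) had 279, 290, 142 and 340 CPM in AVS low, against 120, 69.1, 138 and 93.0 CPM in the control. The groups were apart, but AVS low replicate 4 exceeded control replicate 3 by a small margin (log2 fold change 1.32, SE 0.27; adjusted p = 0.00784 in the authors' deposited table). Elastin b, elnb, the rubber-like protein of vessel and heart outflow walls, had 4.90, 14.5, 4.62 and 15.5 CPM in AVS low, against 3.21, 3.498, 3.001 and 3.27 CPM in the control (1.60, SE 0.40; adjusted p = 0.0440 in the authors' deposited table). The control libraries were close together, and AVS low replicates 2 and 5 were far above replicates 1 and 4. The basement membrane gene nid2a, a nidogen, had 25.3, 37.0, 17.5 and 38.1 CPM in AVS low, against 12.5, 9.90, 15.003 and 17.9 CPM in the control (1.09, SE 0.26; adjusted p = 0.0494 in the authors' deposited table), with overlap between AVS low replicate 4 and control replicate 4.

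Over the collagens of skin, cartilage and bone, 23 of the 24 tested had higher values, 15 (62.5%) with an unadjusted p under 0.05, where 5.14% of all genes were higher at that p. The median log2 fold change was 0.54 and the single lower value −0.07 (col9a1b, SE 0.28). Only in col1a1a were the groups apart. The other type I chains, col1a1b and col1a2, were at 0.59 (SE 0.21) and 0.52 (SE 0.23). The type X collagen col10a1a of hypertrophic cartilage and bone-forming cells had 12.2, 32.4, 4.95 and 51.1 CPM in AVS low, against 3.52, 2.64, 7.20 and 9.55 CPM in the control (2.13, SE 0.60). The fibril-associated collagen col12a1b had 25.7, 88.0, 31.8 and 84.0 CPM in AVS low, against 26.5, 9.64, 22.1 and 26.3 CPM in the control (1.44, SE 0.41). In both, replicates 2 and 5 carried the high values. The type II, V, VI, IX and XI chains col2a1b, col5a1, col6a1, col9a1a and col11a1a were at 0.51, 0.55, 0.70, 0.61 and 0.54. The number of collagens with an unadjusted p under 0.05 was between 8 (AVS low replicate 2 out) and 16 (AVS low replicate 4 or control replicate 3 out) when 1 library was dropped, and the median was between 0.45 and 0.69. In AVS low replicate 4 the score of the list was −0.17, against 0.29 to 0.52 in the other AVS low libraries and −0.51 to −0.07 in the control.

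Cartilage and bone genes other than collagens had 23 of 27 higher values, a median of 0.24, and 5 (18.5%) with an unadjusted p under 0.05. Over all genes, 5.14% were higher at that p, and 2.12% kept the groups apart on the higher side. Of the 5, 3 kept the groups apart. These were entpd5a, a nucleotidase needed for bone mineralization in zebrafish, with 1.28, 1.51, 1.57 and 2.41 CPM in AVS low, against 0.0617, 0.198, 0.900 and 0.566 CPM in the control (1.97, SE 0.63), the matrilin matn4 (0.49, SE 0.18) and the growth factor bmp2a (0.71, SE 0.26). The others were sox9b, a transcription factor of cartilage (0.54, SE 0.21), and matn1 (0.64, SE 0.27). Without control replicate 1 the count of 5 was 1.

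Keratin and epithelial junction genes, taken as 1 list, also had mostly higher values. Occludin b, oclnb, a protein of tight junctions, had 20.5, 34.8, 16.1 and 29.7 CPM in AVS low, against 12.6, 12.7, 13.2 and 10.2 CPM in the control (log2 fold change 1.05, SE 0.24; adjusted p = 0.0366 in the authors' deposited table). The epidermal transcription factor grhl3, which is not on the list, had 7.32, 10.1, 9.07 and 8.40 CPM in AVS low, against 4.93, 3.498, 4.80 and 4.53 CPM in the control (0.97, SE 0.24; adjusted p = 0.0448 in the authors' deposited table). For both genes all AVS low libraries were above all control libraries. Among keratins and epithelial junctions, 24 of 32 members had higher values, with a median of 0.32. At an unadjusted p under 0.05, 5.14% of all genes were higher and 4.97% lower. Of the list's members, 10 (31.2%) were higher at that p and 1 (3.12%), the keratin cyt1l (−0.63, SE 0.27), lower. Besides oclnb, the higher ones were the plakoglobin gene jupa (0.93, SE 0.28), oclna (0.82, SE 0.25), desmoplakin, dspa (0.77, SE 0.25), the claudins cldnb (0.71, SE 0.23), cldne (0.52, SE 0.21) and cldna (0.66, SE 0.29), E-cadherin, cdh1 (0.61, SE 0.20), the scaffold tjp3 (0.69, SE 0.23) and periplakin, ppl (0.51, SE 0.23). None of these 10 is a keratin gene. With 1 library left out, 7 to 11 members reached that p on the higher side. The list's score was 0.36, 0.37, −0.04 and 0.07 in AVS low. It was −0.27, −0.42, −0.15 and 0.16 in the control, so as a list the groups overlapped.

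Among further genes called higher in the authors' deposited table, rhov had 6.31, 11.3, 5.27 and 7.68 CPM in AVS low, against 3.33, 2.71, 3.08 and 3.39 CPM in the control, with the groups apart (log2 fold change 1.29, SE 0.29; adjusted p = 0.0287 in the authors' deposited table). A gene of the Ral exchange factor family, rgl3a, had 17.6, 20.7, 16.2 and 21.5 CPM in AVS low, against 10.5, 11.5, 8.48 and 10.9 CPM in the control, again apart (0.88, SE 0.19; adjusted p = 0.0212 in the authors' deposited table). The prenylation list had 3 of 12 members higher and a median of −0.14 (−0.22 to −0.06 with 1 library left out). It holds subunits of enzymes that attach isoprenoid lipids to proteins (fnta, fntb, pggt1b, rabggta, rabggtb) and other genes related to these lipids. The higher members were rce1a (0.45, SE 0.72), rce1b (0.13, SE 0.58) and rabggta (0.06, SE 0.18), of which only rabggta is such a subunit. Coenzyme Q synthesis had 5 of 10 members higher and a median of 0.01 (−0.08 to 0.06 likewise). Neither list had a member at an unadjusted p under 0.05. The subunit gene rabggtb was at −0.30 (SE 0.22) and coq2 at −0.24 (SE 0.22).

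Among endothelial genes, the transcription factor klf2b, a Krüppel-like factor that responds to blood flow, had 38.0, 46.5, 21.1 and 36.0 CPM in AVS low, against 17.0, 12.01, 19.9 and 17.9 CPM in the control (log2 fold change 1.09, SE 0.24; adjusted p = 0.0291 in the authors' deposited table). The receptor phosphatase ptprb, of endothelial junctions, had 29.3, 30.9, 20.4 and 32.2 CPM in AVS low, against 15.8, 13.9, 17.7 and 17.5 CPM in the control (0.80, SE 0.18; adjusted p = 0.0494 in the authors' deposited table). In both genes the groups were apart and AVS low replicate 4 was the lowest of its group. The gene ptprb overlaps ptprr on the opposite strand (−0.26), and the sources used here do not give the strand setting of the counting. The endothelial list does not include ptprb. Of the 26 endothelial list genes tested, 19 had higher values (median 0.35). Among them klf2b alone (3.85%) had an unadjusted p under 0.05, where 5.14% of all genes were higher at that p.

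A group of zona pellucida domain genes on chromosome 12 held the most firmly called genes. This domain lets secreted proteins polymerize into egg coats and other extracellular matrices, and the domain annotation is that of the deposited table. The group was chosen after its values were seen, so its values are a description. Chromosome 12 carries 11 such genes: 4 within 182 kb (38878830 to 39061186), 6 within 195 kb (46120836 to 46315898) and tectb, a tectorin gene of the inner ear, alone at 31476169 to 31484677. Of the 9 tested, 8 had higher values, with a median log2 fold change of 1.56 (1.43 to 1.73 with 1 library left out). On the higher side, 7 had an unadjusted p under 0.05, 5 were called in the authors' deposited table and 5 kept the groups apart. Over all genes, the shares on that side were 5.14%, 0.144% and 2.12% in the same order. On the other chromosomes, 18 of 36 zona pellucida genes were tested, 14 had higher values, 3 had an unadjusted p under 0.05, none was called and the median was 0.26. Of the 43 called genes, 7 lie on chromosome 12, which holds 3.28% of the genes in the table.

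**Figure D3:**
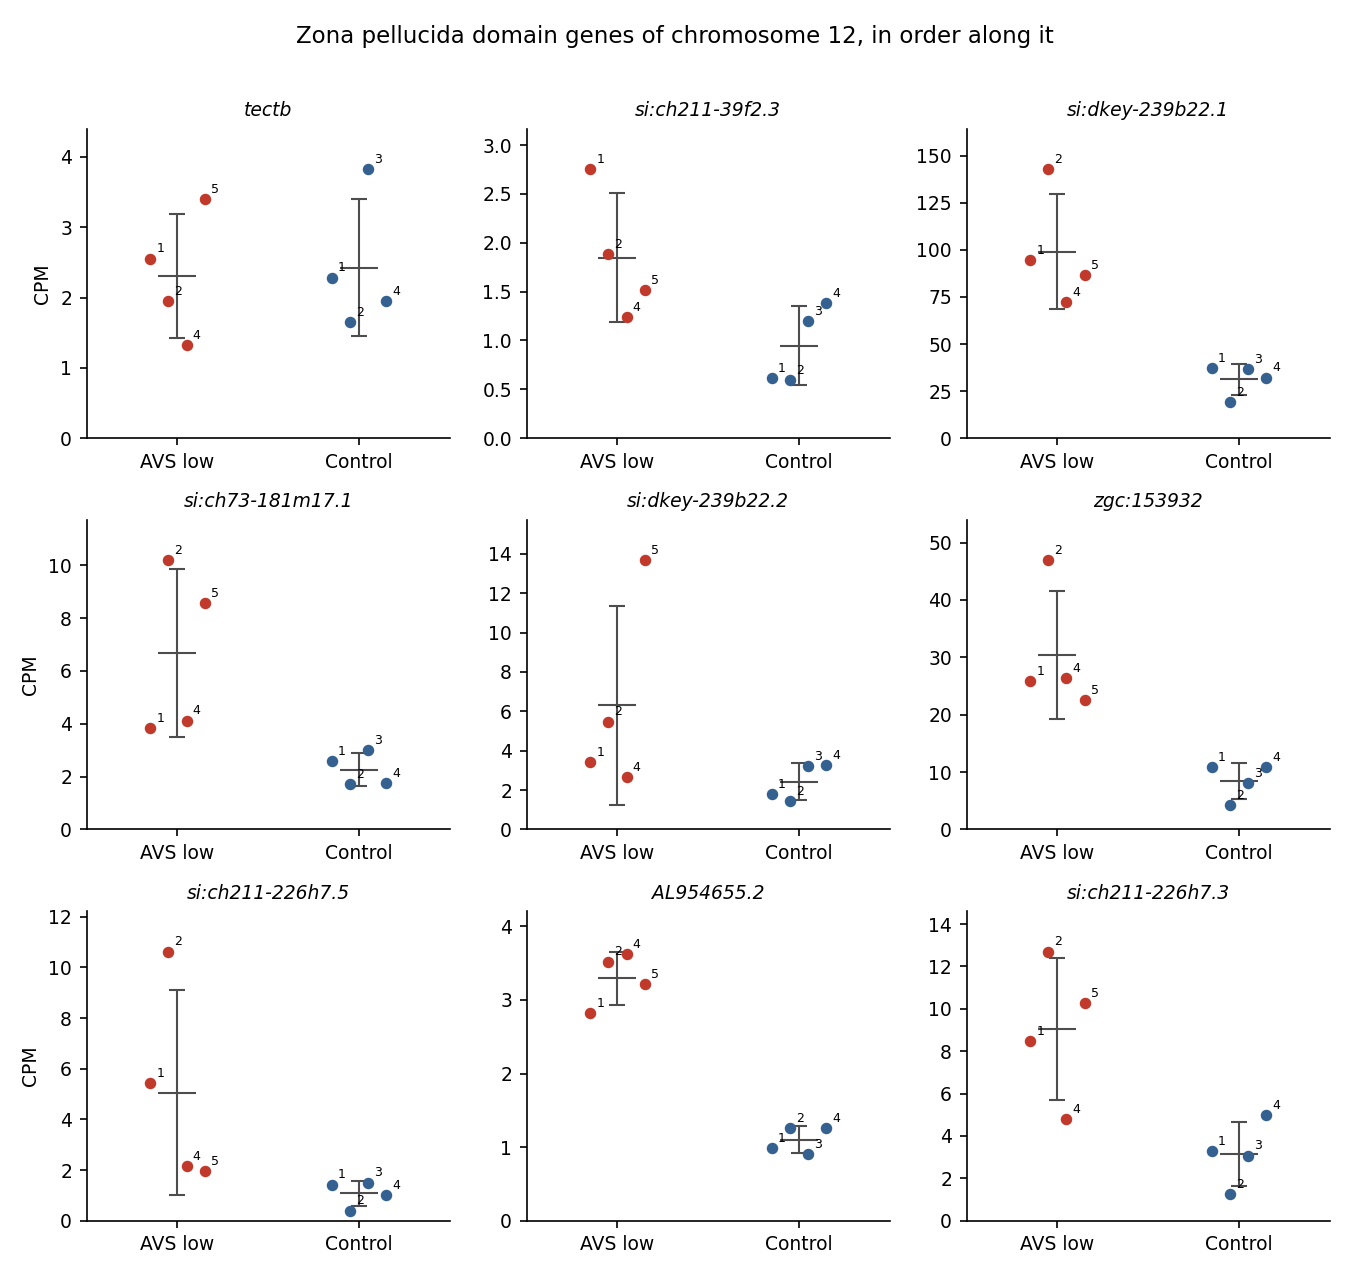
CPM per library (vertical axis, linear, from 0) of the 9 tested zona pellucida domain genes of chromosome 12, in their order along the chromosome, AVS low at the left and control at the right of each panel. Numerals are replicate numbers and bars mean ± SD (n = 4 each); si:dkey-239b22.1 lies between 72.2 and 143 CPM in AVS low and between 19.1 and 37.1 CPM in the control, while tectb overlaps.

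In the first cluster, si:dkey-239b22.1 (38929663 to 38974869, plus strand) had 94.4, 143, 72.2 and 86.7 CPM in AVS low, against 37.1, 19.1, 36.7 and 32.1 CPM in the control (log2 fold change 1.67, SE 0.25; adjusted p = 7.3e-06 in the authors' deposited table). Its neighbour si:ch73-181m17.1 had 3.83, 10.2, 4.12 and 8.57 CPM in AVS low, against 2.59, 1.72, 3.001 and 1.76 CPM in the control (1.56, SE 0.38; adjusted p = 0.0440 in the authors' deposited table). Both genes were apart, the first by a wide gap. The adjacent si:dkey-239b22.2 overlapped and was high in AVS low replicate 5, with 3.43, 5.47, 2.64 and 13.7 CPM in AVS low, against 1.79, 1.45, 3.23 and 3.27 CPM in the control (1.36). In the second cluster, zgc:153932 (46120836 to 46145909, minus strand) had 25.8, 46.9, 26.4 and 22.6 CPM in AVS low, against 10.9, 4.22, 8.10 and 10.9 CPM in the control (1.84, SE 0.31; adjusted p = 0.000119 in the authors' deposited table). The unprocessed pseudogene AL954655.2 had 2.82, 3.52, 3.63 and 3.22 CPM in AVS low, against 0.987, 1.25, 0.900 and 1.26 CPM in the control (1.57, SE 0.34; adjusted p = 0.0212 in the authors' deposited table). The groups were apart in both, with AVS low replicate 2 above the rest for zgc:153932. For si:ch211-226h7.5 the values were 5.44, 10.6, 2.14 and 1.97 CPM in AVS low, against 1.42, 0.396, 1.5 and 1.01 CPM in the control (2.23, SE 0.58; adjusted p = 0.0448 in the authors' deposited table). A gene not called, si:ch211-226h7.3, had 8.46, 12.7, 4.78 and 10.3 CPM in AVS low, against 3.27, 1.25, 3.08 and 4.97 CPM in the control (1.52). Another gene identifier with the symbol zgc:153932 lies next to the cluster (46098784 to 46112892) without a domain annotation and had 31, 81, 16 and 32 reads in AVS low and 2, 0, 6 and 29 reads in the control. The genes stand in tandem, and reads of near-identical copies may be split among them in ways the table does not show.

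Trypsin-type proteases included 3 called genes, prss60.3, prss60.2 and tmprss4a, where 0.144% of all genes were called higher. The neighbours prss60.3 and prss60.2 on chromosome 6 share a symbol stem and a domain. Their sequences were not compared here, and if they are alike, their reads may be mixed. The first had 2.62, 4.09, 1.401 and 3.13 CPM in AVS low, against 0.617, 0.132, 0.450 and 0.503 CPM in the control (log2 fold change 2.70, SE 0.52; adjusted p = 0.00334 in the authors' deposited table). The second had 2.15, 3.71, 2.23 and 2.68 CPM in AVS low, against 0.802, 0.528, 0.7501 and 0.817 CPM in the control (1.88, SE 0.39; adjusted p = 0.0212 in the authors' deposited table). The membrane protease tmprss4a of epithelia had 10.3, 14.3, 7.83 and 12.2 CPM in AVS low, against 3.33, 6.27, 5.33 and 5.47 CPM in the control (1.13, SE 0.27; adjusted p = 0.0440 in the authors' deposited table). All 3 were apart. Of the 67 trypsin-domain genes tested, a group likewise chosen after values were seen, 53 had higher values, and the median was 0.23. An unadjusted p under 0.05 was reached by 10 on the higher side, where 5.14% of all genes were higher at that p. The group includes pancreas proteases low in control replicate 2, such as ela2, at 8.45 CPM there and 115 to 203 CPM in the other control libraries. Its median was not recomputed with a library left out.

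Immune genes were mostly on the higher side, at low levels. The integrin itgam, the CD11b chain of phagocytes, had 2.08, 3.46, 1.24 and 0.893 CPM in AVS low, against 0.185, 0, 0.225 and 0.314 CPM in the control (log2 fold change 3.36, SE 0.70; adjusted p = 0.0109 in the authors' deposited table). The tetraspan gene ms4a17a.10 had 4.23, 2.77, 1.57 and 1.07 CPM in AVS low, against 0.370, 0.462, 0.7501 and 0.440 CPM in the control (2.26, SE 0.52; adjusted p = 0.0413 in the authors' deposited table). The groups were apart in both, and AVS low replicate 5 was the lowest of its group. Markers of macrophages and neutrophils had 28 of 30 members higher, a median of 0.54 and 7 (23.3%) with an unadjusted p under 0.05. The share of all genes higher at that p was 5.14%. Without control replicate 2, whose score for the list was −0.67, the count was 4 and the median 0.33, and without AVS low replicate 2 the count was 3. The perforin-like macrophage gene mpeg1.2 had 13.8, 20.6, 6.10 and 14.4 CPM in AVS low, against 3.76, 2.77, 5.70 and 8.11 CPM in the control (1.43, SE 0.39). The leukocyte plastin lcp1 was at 1.02 (SE 0.31) and the integrin itgb2 at 1.14 (SE 0.39). The matrix protease mmp9 kept the groups apart, with 7.19, 11.9, 7.34 and 11.9 CPM in AVS low, against 5.67, 6.27, 7.05 and 6.66 CPM in the control (0.58, SE 0.25).

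Of 44 cytokine and interferon signalling genes, 31 had higher values (median 0.18), with 7 (15.9%) higher and 2 (4.55%) lower at an unadjusted p under 0.05. Among all genes these shares were 5.14% and 4.97%. The interferon regulatory factor irf1b had 24.99, 18.1, 13.8 and 15.5 CPM in AVS low, against 5.24, 3.70, 9.002 and 13.0 CPM in the control (1.23, SE 0.35). It kept the groups apart, as did irf3 (1.39, SE 0.44) and the NF-κB subunit rela (0.63, SE 0.25). Of the members lower in AVS low, 1 was apart. Over all genes, 2.12% were apart with higher values and 2.27% with lower. On the lower side were the feedback inhibitor socs1a (−0.43, SE 0.17) and the cytokine gene tnfb (−1.13, SE 0.49). The count on the higher side was 2 without control replicate 2 and 11 without control replicate 4, where the median was 0.30.

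NACHT domain genes, which resemble mammalian NOD-like receptors and are massed on chromosome 4 in zebrafish, held 3 called genes. The share of all genes called higher was 0.144%. Of the 124 tested on chromosome 4, 100 had higher values, and the median log2 fold change was 0.44 (0.33 to 0.58 with 1 library left out). At an unadjusted p under 0.05, 21 were higher and none lower, where 5.14% of all genes were higher and 4.97% lower. Of the 66 tested elsewhere, 35 had higher values (median 0.02). This split by chromosome was made after values were seen. The called si:dkey-165e24.1 had 10.7, 15.8, 9.07 and 14.8 CPM in AVS low, against 5.98, 5.08, 5.25 and 4.02 CPM in the control, with the groups apart (1.31, SE 0.25; adjusted p = 0.00334 in the authors' deposited table). The called genes si:ch211-106j21.5 (1.48, SE 0.34) and si:dkey-51d8.3 (1.199, SE 0.29) overlap neighbours on the same strand. These genes share a domain and may be alike in sequence, which was not compared here, so the assignment of reads among them is uncertain.

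Several called genes were high chiefly in AVS low replicates 2 and 5. Growth hormone, gh1 (chromosome 3, 22327738 to 22332913, plus strand), made in the pituitary, had 10.8, 35.8, 6.43 and 34.4 CPM in AVS low, against 5.37, 4.62, 4.65 and 7.73 CPM in the control (log2 fold change 1.96, SE 0.47; adjusted p = 0.0198 in the authors' deposited table). AVS low replicate 4 lay within the control range. The only other pituitary gene that passed the low-count filter, the glycoprotein hormone subunit cga, was also highest in those 2 libraries, with 0.537, 3.08, 0.247 and 2.41 CPM in AVS low, against 0.0617, 0.858, 0 and 1.07 CPM in the control (1.63, SE 0.94). Pituitary hormone genes under the filter ran both ways: prolactin, prl, had 11, 13, 6 and 11 reads in AVS low and 0 reads in every control library, and the thyrotropin subunit tshba had 6, 6, 6 and 2 reads in AVS low, against 13, 13, 7 and 6 reads in the control. The phospholipid flippase atp8b1 had 8.26, 28.4, 9.89 and 29.8 CPM in AVS low, against 7.96, 4.03, 6.68 and 5.59 CPM in the control (1.65, SE 0.41; adjusted p = 0.0310 in the authors' deposited table). The mesothelin gene mslna had 6.52, 18.5, 3.38 and 17.1 CPM in AVS low, against 4.07, 2.51, 2.70 and 3.46 CPM in the control (1.83, SE 0.46; adjusted p = 0.0360 in the authors' deposited table), and it overlaps the called gene BX682557.2 on the same strand. The cation-chloride cotransporter slc12a10.1 had 1.54, 7.48, 4.12 and 7.50 CPM in AVS low, against 1.79, 0.660, 1.05 and 1.32 CPM in the control (2.08, SE 0.50; adjusted p = 0.0287 in the authors' deposited table). For mslna and slc12a10.1 an AVS low library overlapped the control.

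On the lower side stood genes of photoreceptors. The cone opsin kinase grk1b had 13.4, 11.6, 21.0 and 17.0 CPM in AVS low, against 26.9, 39.8, 30.9 and 26.7 CPM in the control (log2 fold change −0.98, SE 0.22; adjusted p = 0.0366 in the authors' deposited table). The calcium sensor guca1c, which regulates guanylate cyclase in photoreceptors, had 30.4, 21.2, 25.5 and 18.3 CPM in AVS low, against 41.0, 45.3, 38.1 and 40.6 CPM in the control (−0.79, SE 0.18). The groups were apart in both. Of 52 photoreceptor genes tested, 43 had lower values and 9 higher, with a median of −0.23. The list's score was 0.20, −0.39, −0.03 and −0.31 in AVS low. It was −0.15, 0.38, 0.13 and 0.19 in the control, so as a list the groups overlapped. On the lower side 11 (21.2%) had an unadjusted p under 0.05, where 4.97% of all genes did. The groups were apart in 5, where 2.27% of all genes were apart on the lower side. Besides grk1b and guca1c, these were the matrix proteoglycan impg2a (−0.79, SE 0.22), guca1a (−0.85, SE 0.32) and the rod phosphodiesterase pde6a (−0.40, SE 0.17). With 1 library left out, the count at that p was between 6 (AVS low replicate 2 out) and 16 (control replicate 1 out). The median was then between −0.37 and −0.16. Lens genes, from the same organ, had 27 of 52 higher and a median of 0.06, which was −0.13 without AVS low replicate 1, −0.03 to −0.06 without control replicate 1, 2 or 3, and 0.38 without control replicate 4. Of the lens genes, 4 (7.69%) were higher and 1 (1.92%) lower at an unadjusted p under 0.05. Among all genes these shares were 5.14% and 4.97%. Lens fold changes ran from −1.52 to 0.86, with the water channel mipb at 0.86 (SE 0.30) and the beaded filament gene bfsp2 at 0.74 (SE 0.27).

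Neuronal genes had 40 of 45 values lower and a median log2 fold change of −0.25 (−0.15 without control replicate 2 and −0.34 without control replicate 4). Only 3 (6.67%) had an unadjusted p under 0.05, near the 4.97% of all genes that were lower at that p. They were the neurofilament nefmb, with 25.9, 23.0, 28.2 and 23.2 CPM in AVS low, against 30.0, 41.0, 33.0 and 30.5 CPM in the control (−0.42, SE 0.16), choline acetyltransferase, chata (−0.66, SE 0.27), and the intermediate filament inaa (−0.50, SE 0.23). Skeletal muscle, a tissue in which statins have side effects in patients, had 20 of 49 genes higher, 29 lower and a median of −0.08. That median was 0.04 without control replicate 4 and −0.21 with AVS low replicate 1 out. At an unadjusted p under 0.05, 6 (12.2%) were lower and 2 (4.08%) higher, where 4.97% of all genes were lower and 5.14% higher. The slow troponin tnnt1 had 3.90, 3.02, 3.30 and 3.22 CPM in AVS low, against 5.74, 7.06, 6.53 and 5.59 CPM in the control, with the groups apart (−0.89, SE 0.25). Nebulin, neb, a ruler of the thin filament, was at −1.17 (SE 0.42), the titins ttn.1 and ttn.2 at −0.88 (SE 0.39) and −0.75 (SE 0.34), and the slow myosin smyhc2 at 1.04 (SE 0.40). Genes of muscle atrophy and repair were centred at a median of 0.00 (−0.05 to 0.04 with 1 library left out), 12 of 24 being higher; the ubiquitin ligase fbxo32, a marker of atrophy, was at −0.26 (SE 0.15).

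The other lower calls belong to no list. The thioredoxin-like chaperone regulator txndc9 had 15.2, 17.3, 15.3 and 14.6 CPM in AVS low, against 22.6, 39.6, 27.3 and 31.7 CPM in the control (log2 fold change −0.95, SE 0.19; adjusted p = 0.0212 in the authors' deposited table). The subunit gtf2f2a of the transcription factor TFIIF had 14.2, 13.1, 28.1 and 17.8 CPM in AVS low, against 39.3, 53.7, 35.2 and 29.5 CPM in the control (−1.11, SE 0.26; adjusted p = 0.0448 in the authors' deposited table), and it overlaps CR339054.2 on the same strand. The vesicle fusion gene sybl1 had 0.605, 2.01, 2.14 and 1.16 CPM in AVS low, against 3.21, 6.67, 7.65 and 3.65 CPM in the control (−1.83, SE 0.44; adjusted p = 0.0366 in the authors' deposited table). In these genes every AVS low library lay below every control library. That was also true of si:dkey-239h2.3, with 26.0, 30.0, 23.1 and 20.9 CPM in AVS low, against 39.8, 69.2, 48.8 and 63.5 CPM in the control (−1.14, SE 0.20; adjusted p = 0.00304 in the authors' deposited table). Genes of small p that were not called included nucb2a, the nesfatin precursor, with 14.3, 19.6, 27.6 and 21.5 CPM in AVS low, against 38.3, 39.4, 36.8 and 32.5 CPM in the control (−0.83, SE 0.20), and the deubiquitinase otud6b, with 10.5, 10.1, 10.7 and 10.9 CPM in AVS low, against 19.7, 20.1, 14.3 and 16.7 CPM in the control (−0.75, SE 0.18).

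Ribosomal protein and respiratory chain genes were mostly lower, by an amount that rested on few libraries. At an unadjusted p under 0.05, 4.97% of all genes were lower. Of 77 cytosolic ribosomal protein genes, 74 had lower values (median log2 fold change −0.42), 13 (16.9%) with an unadjusted p under 0.05. The median was −0.14 and the count 4 without control replicate 4. Dropping AVS low replicate 5 instead gave a median of −0.25 and a count of 4, and dropping control replicate 1 or 2 gave counts of 29 and 3. The gene rpl35 had 494, 445, 588 and 342 CPM in AVS low, against 595, 925, 629 and 989 CPM in the control (−0.75, SE 0.23), with the groups apart. Nuclear genes of the respiratory chain had 76 of 86 lower, a median of −0.35 and 12 (14.0%) with an unadjusted p under 0.05, and the median was −0.10 without control replicate 4 and −0.19 with AVS low replicate 5 out. The complex III subunit uqcrq was at −1.43 (SE 0.43) and the cytochrome oxidase subunit cox4i1 at −0.56 (SE 0.18). All 13 mitochondrially encoded genes were lower (median −0.25, and −0.11 without control replicate 4), and none had an unadjusted p under 0.05. Fold changes also moved with gene length: the median was −0.20 for the 1814 genes shorter than 1 kb, −0.08 from 1 to 2 kb, 0.02 from 2 to 4 kb, 0.06 from 4 to 8 kb and 0.11 above 8 kb. With this trend removed, the median was −0.33 for ribosomal protein genes, −0.23 for the respiratory chain, −0.08 for the mitochondrial genome and 0.47 for collagens.

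**Figure D4:**
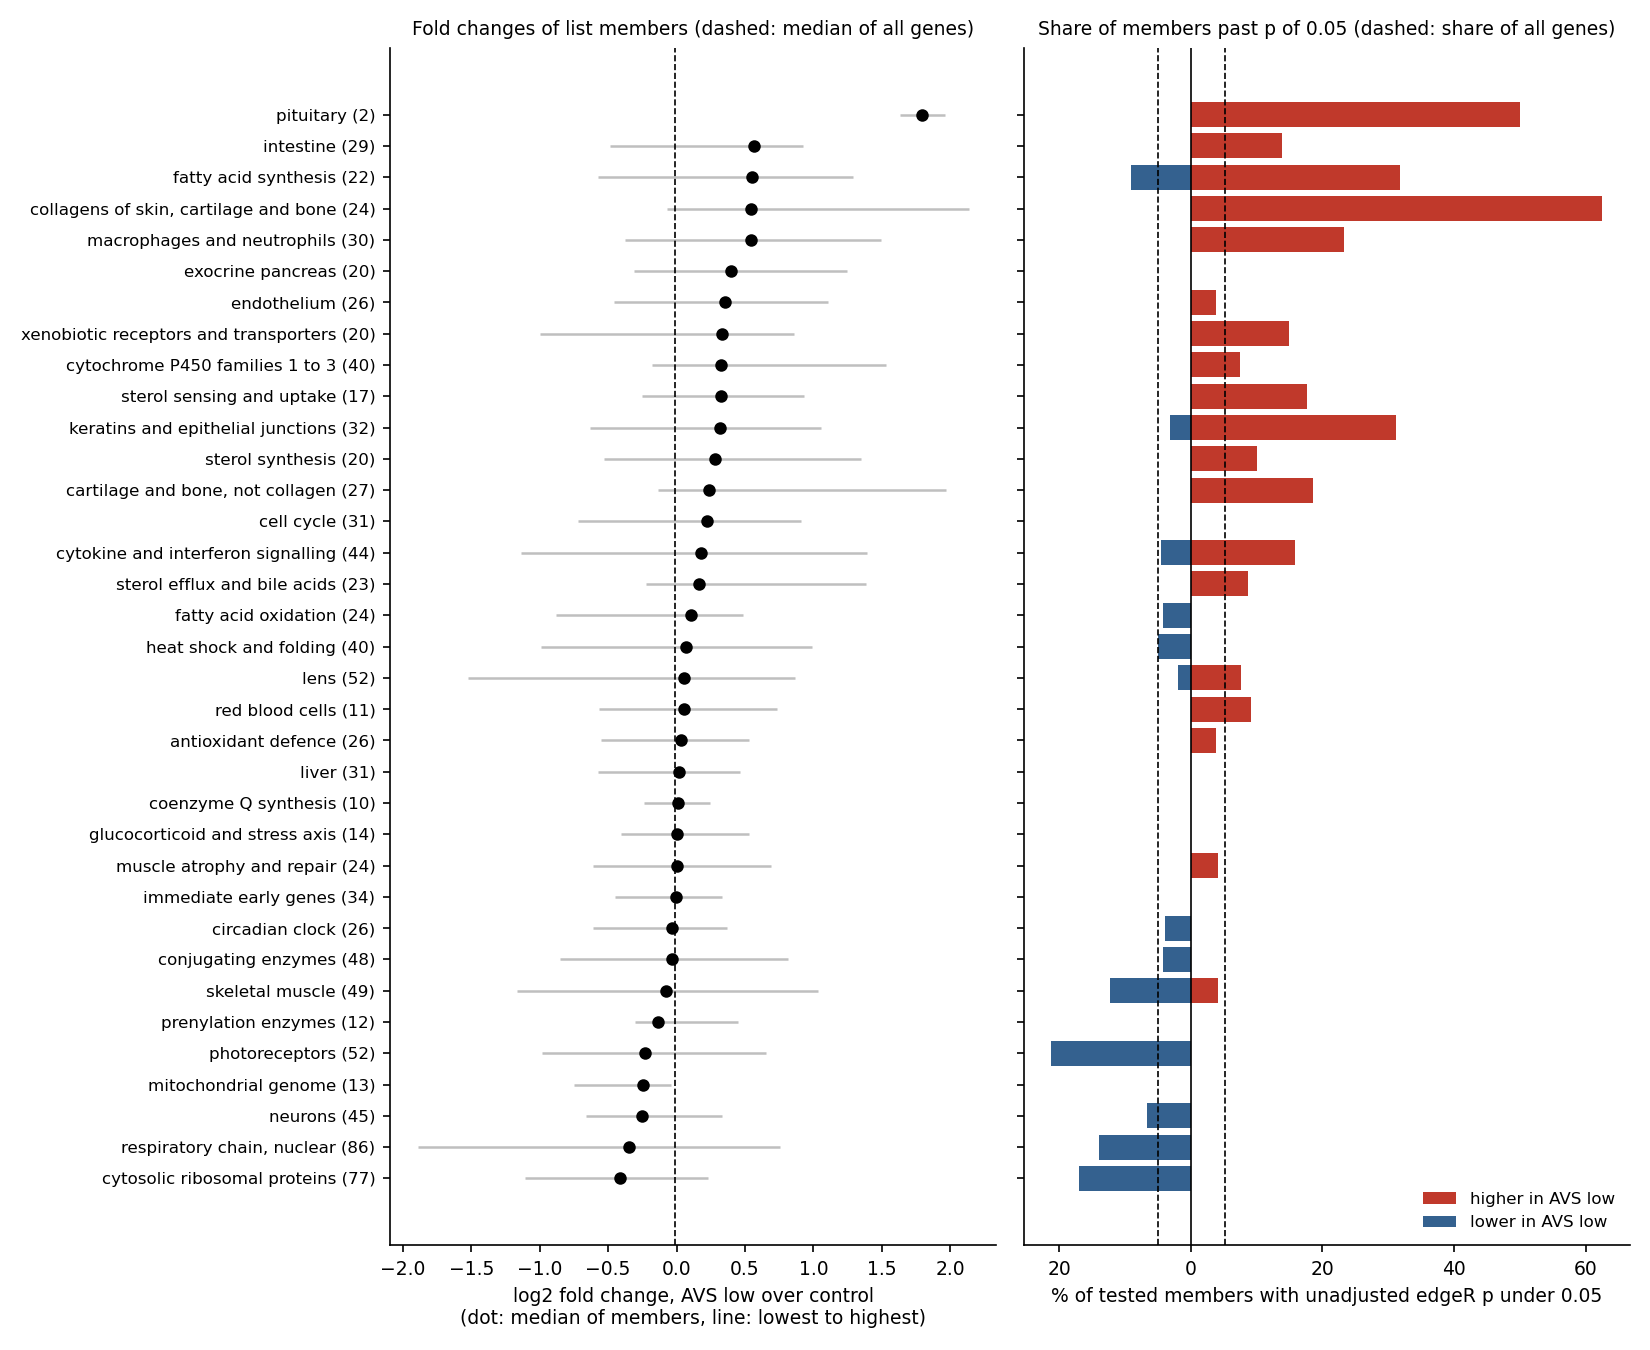
Dots in the left panel give the median log2 fold change of AVS low over control for each of the 35 gene lists. Lines there run from the lowest to the highest fold change among the list's members. The right panel gives the percentage of tested members with an unadjusted edgeR p under 0.05, on the higher and on the lower side. Dashed lines give the median and these percentages over all genes tested (−0.01, 5.14% and 4.97%). Collagens reach 62.5% on the higher side and photoreceptors 21.2% on the lower.

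Digestive and detoxification lists moved when control replicate 2 or 4 was left out. Exocrine pancreas genes had 18 of 20 values higher (median log2 fold change 0.40) and intestine genes 26 of 29 (median 0.56), with 0 and 4 (13.8%) members at an unadjusted p under 0.05. The share of all genes higher at that p was 5.14%. Without control replicate 2 the medians were 0.22 and 0.22, and without control replicate 4 they were 0.86 and 0.75. The pancreas median was also 0.23 without AVS low replicate 5 and 0.60 without AVS low replicate 4. The elastase ela2 had 349, 336, 76.1 and 337 CPM in AVS low, against 137, 8.45, 115 and 203 CPM in the control. The intestinal uptake receptor cubn had 64.7, 105, 49.6 and 101 CPM in AVS low, against 50.5, 28.8, 51.8 and 40.3 CPM in the control (0.90, SE 0.26). Liver genes were centred at 0.02, 17 of 31 being higher, and the count at an unadjusted p under 0.05 was 0; without control replicate 2 the median was −0.12, and without control replicate 4 it was 0.14. Cytochrome P450 genes of families 1 to 3 had 33 of 40 higher (median 0.32, and 0.17 without control replicate 2), and cyp1c1 kept the groups apart (0.62, SE 0.27). Xenobiotic receptors and transporters had 15 of 20 higher (median 0.33, and 0.14 without control replicate 2), with the drug transporter abcb5 at 90.7, 133, 70.14 and 139 CPM in AVS low, against 57.0, 72.7, 55.4 and 53.4 CPM in the control (0.86, SE 0.22). Conjugating enzymes had 23 of 48 higher and a median of −0.04, which was −0.09 without control replicate 2 and 0.16 without control replicate 4.

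Lists of stress, rhythm and red blood cell genes lay near the median of all genes. Immediate early genes had 17 of 34 higher (median −0.01), the glucocorticoid and stress axis 7 of 14 (median 0.01), the circadian clock 11 of 26 (median −0.03), antioxidant defence 15 of 26 (median 0.03), heat shock and folding 25 of 40 (median 0.07) and red blood cells 7 of 11 (median 0.05). With 1 library left out, their medians lay between −0.12 and 0.19. The cell cycle list had 22 of 31 higher and a median of 0.22, between 0.09 (AVS low replicate 1 out) and 0.26 (control replicate 4 out). All these lists had 0 to 2 members each at an unadjusted p under 0.05 in either direction. Those of smallest p included the chaperones hsph1 (−0.99, SE 0.35) and calr (−0.77, SE 0.27), the clock gene nfil3-6 (−0.61, SE 0.26), the oxidative stress sensor keap1a (0.53, SE 0.21) and the anion exchanger of red cells slc4a1a (0.67, SE 0.30).

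**Figure D5:**
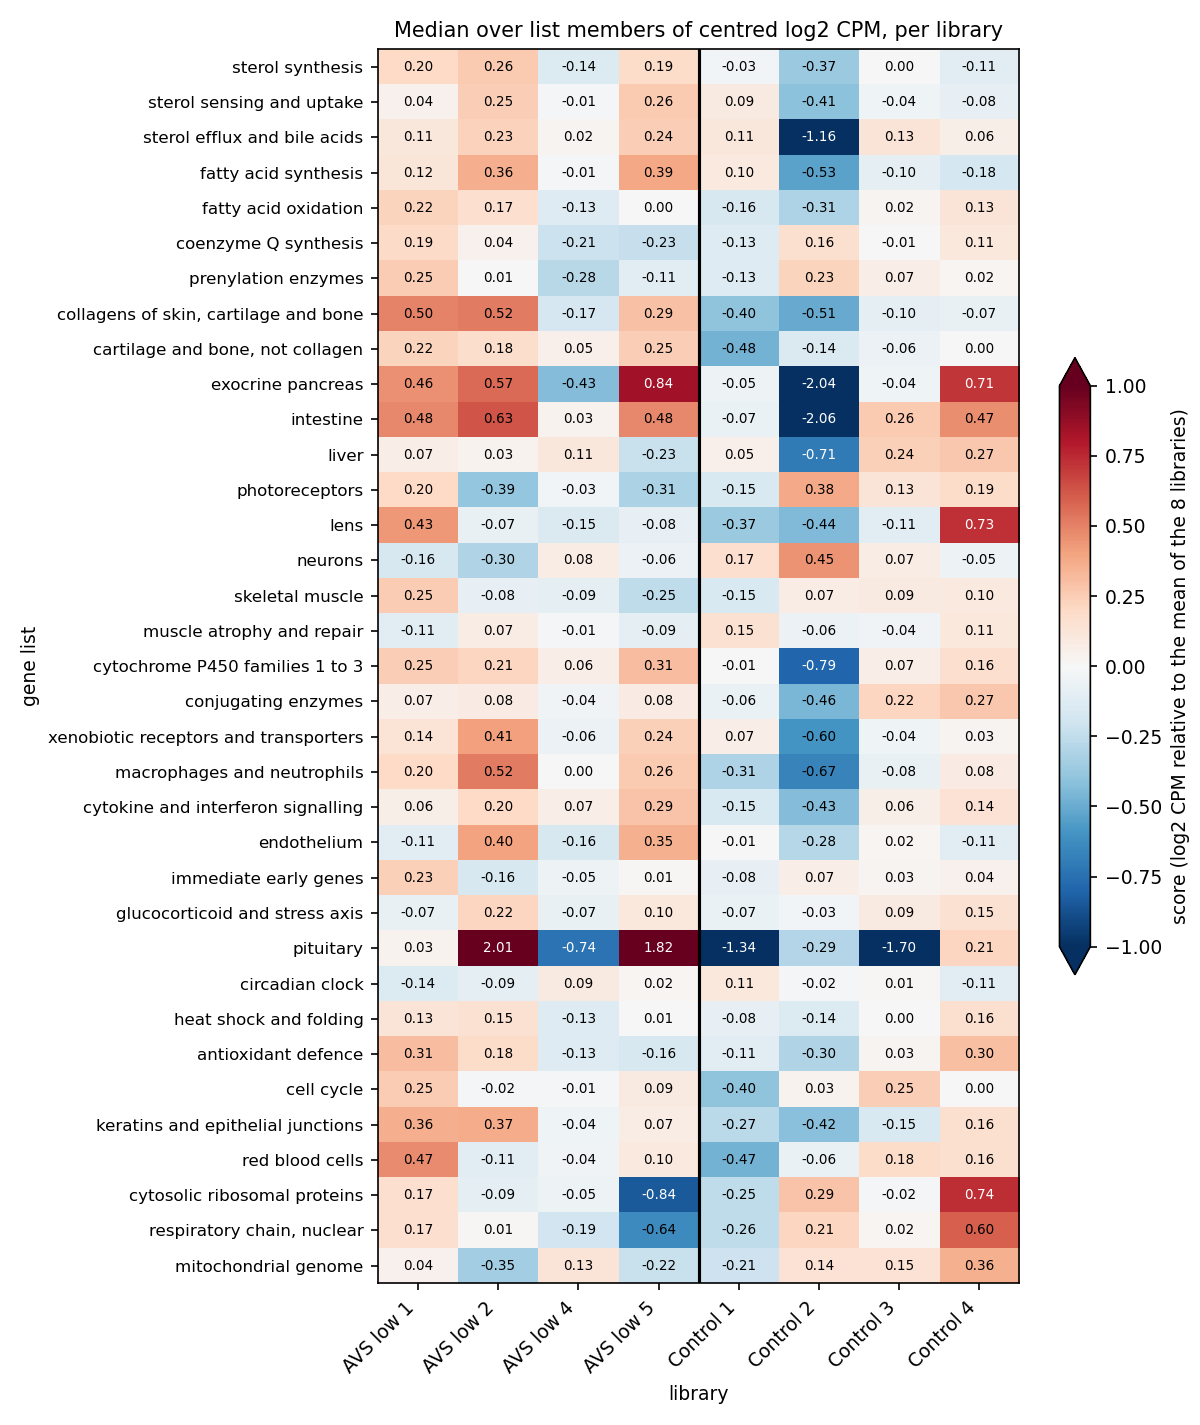
Score of each of the 35 lists (rows) in each of the 8 libraries (columns, AVS low at the left, control at the right). The score is the median over the list's tested genes of log2 CPM, each gene centred over the 8 libraries. Colour gives its sign and size, in log2 units. Control replicate 2 has the lowest intestine score (−2.06). For collagens, AVS low replicate 4 (−0.17) lies within the control range (−0.51 to −0.07), below the other AVS low libraries (0.29 to 0.52).

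The higher dose was compared directly. Between AVS low and AVS high, edgeR called 0 of 20144 genes, 0% of them, with a smallest adjusted p of 0.364, while 1095 genes (5.44%) had an unadjusted p under 0.05. DESeq2 called 5 genes, all higher in AVS low: si:dkey-239b22.1 (log2 difference 1.45, adjusted p = 0.00143), si:ch211-217k17.8 (3.38, adjusted p = 0.00143), cyldb, a deubiquitinase gene (0.98, adjusted p = 0.00678), zgc:153932 (1.71, adjusted p = 0.0163) and si:dkey-202l22.6 (1.21, adjusted p = 0.0357). This contrast shares the 4 AVS low libraries with the one against the control, and the comparisons of AVS high and of Afid low with the control share the control libraries, so the values below stand side by side only. In a fit of 15 libraries, si:dkey-239b22.1 averaged 98.5 CPM in AVS low, 35.8 in AVS high, 49.8 in Afid low and 31.1 in the control, and zgc:153932 averaged 30.3 in AVS low, 9.21 in AVS high, 13.9 in Afid low and 8.46 in the control.

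Of the 36 genes called higher in AVS low by the authors' deposited table and tested in this fit, 35 had higher values in AVS low than in AVS high. All 6 of those called lower had lower values. Over all genes tested in this fit, 9850 were higher in AVS low than in AVS high and 10294 lower. The called genes were chosen by their values in the same AVS low libraries, so their counts do not test a difference between the doses. The called genes differed in how far AVS high stood from AVS low. For fads2 the mean was 47.1 CPM in AVS low, 44.4 in AVS high, 23.1 in Afid low and 19.2 in the control, and AVS low differed from AVS high by 0.08 (log2, SE 0.25). For gh1 it was 21.7 CPM in AVS low, 23.2 in AVS high, 11.3 in Afid low and 5.56 in the control (−0.10, SE 0.60). The integrin itgam stood at 1.91 CPM in AVS low, 0.200 in AVS high, 0.231 in Afid low and 0.180 in the control (3.25, SE 1.03). For col1a1a the mean was 261 CPM in AVS low, 189 in AVS high, 153 in Afid low and 104 in the control (0.47, SE 0.32), and the 24 collagens tested were all higher in AVS low than in AVS high, with a median difference of 0.29. Grainyhead-like grhl3 averaged 8.66 CPM in AVS low, 5.20 in AVS high, 6.83 in Afid low and 4.41 in the control (0.73, SE 0.28). The photoreceptor kinase grk1b averaged 15.7 CPM in AVS low, 18.8 in AVS high, 26.3 in Afid low and 30.9 in the control (−0.26, SE 0.25). For sterol synthesis the median difference between AVS low and AVS high was −0.05 and for sterol sensing and uptake 0.05, while 51 of 52 lens genes were lower in AVS low (median −0.39).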

How the data were processed

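Total RNA was extracted with TRIzol from whole larvae and sequenced as directional poly(A) libraries on a NovaSeq, per the labels' protocols. Read trimming with fastp, alignment with HISAT2, counting with featureCounts and testing with DESeq2 are named in the submitters' processing notes; the sources used here do not give their versions, the genome build or the strand setting of counting. The authors deposited, per the file headers, raw read counts per gene, FPKM per gene, and their own log2 fold changes with p-values and adjusted p-values, beside gene coordinates, lengths and a domain annotation. Counts of 8 libraries of 1 table were used for the main comparison, and counts of 15 libraries where AVS high and Afid low appear; 44 per-sample columns were not used, and Afid high was not analysed here. FPKM served only for the check of organ markers.

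Counts were tested as deposited with edgeR 4.0.16 in R 4.3.3 (filterByExpr, TMM, quasi-likelihood test, no covariate, Benjamini-Hochberg over all genes tested). Alternatives were limma-voom (limma 3.58.1) and DESeq2 1.42.0. The SE of a log2 fold change is its absolute value divided by the square root of the F statistic. Log2 CPM for the scores used a prior count of 2. The code was tested on simulated data with known changes. Replicates of a group differed by at least 11.9 times the counting noise (chi-square per degree of freedom over genes), so each library was counted once. The files' gene IDs matched the reference table of names for 23867 of 25642.

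The comparison, the 35 gene lists and the tests were chosen with earlier results of these data known. Genes are named where they were called by edgeR or in the authors' deposited table, where they had the 12 smallest edgeR p in a direction, or the 2 smallest p in a list (every member at a p under 0.05 in the lists of sterol synthesis, sterol uptake and fatty acid synthesis), and for fixed genes of lipid metabolism. Further list members at a p under 0.05 and members of the zona pellucida group were added after their values were seen, as were lss, fdps, scap, npc1, ttn.1 and ttn.2. Genes called but not described one by one were kept in all counts.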

Additional observations from a re-analysis of the deposited data

Results flagged for a closer look

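9 values lay far from the other 3 libraries of their group by Dixon's test at its 95% critical value, among 186 groups of 4 libraries checked. Chance flags about 1 in 20 such groups. In AVS low, the zona pellucida domain gene zgc:153932 was at 46.9 CPM in replicate 2, the next highest library being at 26.4 CPM. The NACHT domain gene si:ch211-106j21.5 was at 5.98 CPM in AVS low replicate 5, above 4.27 CPM in the next library. The gene zgc:194686, called higher in the authors' deposited table, was at 0.893 CPM in AVS low replicate 5, below 2.02 CPM in the next library, and at 0 to 0.503 CPM in the control. The receptor gene ldlra was at 63.8 CPM in control replicate 2, below 124 CPM in the next library.

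Among list scores, control replicate 2 was low for sterol efflux and bile acids (−1.16, the next library being at 0.06) and for xenobiotic receptors and transporters (−0.60, the next at −0.04). Control replicate 1 was low for skeletal muscle (−0.15). AVS low replicate 1 was high for lens genes (0.43, the next at −0.07), and AVS low replicate 4 was low for conjugating enzymes (−0.0367).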

How the results depend on the processing

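By edgeR 0 genes were called under every alternative run: DESeq2's size factors, no low-count filter, robust dispersion, limma-voom, a fit of 15 libraries, the replicate block, and each library left out (0 to 0). DESeq2 called 43 against control and 5 against AVS high. Its count against control ran from 3 to 796 with 1 library left out. The 1949 genes at an unadjusted edgeR p under 0.05, a count whose alternatives were chosen after seeing the data, became 411 with the replicate number as a block (199 higher, 212 lower) and 922 to 3219 with 1 library left out; it was lowest with AVS low replicate 2 out and highest with AVS low replicate 4 out, and 1155 with AVS low replicate 5 or 1111 with control replicate 2 out. The values gave no sign that replicate numbers pair the samples, and the labels do not say whether they do. Deviations of AVS low and control libraries of the same number correlated at −0.26, −0.28 and −0.18 for replicates 1, 2 and 4. No library correlated best with its own number. AVS low replicate 5 and control replicate 3 share no number with the other group, so fold changes of the block fit do not draw on them. Of 1736 values of 124 gene results under these alternatives, 1690 kept direction and side of the threshold, 41 passed by DESeq2, and 5 reversed. As edgeR and limma-voom called no gene, only DESeq2 values could change side. Most of these genes were named for a call or a small p, so their direction could hardly turn. The 1690 therefore do not show that the results are stable. The 5 reversed values were those of ldlra (main value 0.08, from −0.12 to 0.19 with 1 library left out; −0.03 with AVS low replicate 5 out and −0.12 with control replicate 2 out) and tectb (main value −0.07, from −0.31 to 0.23; 0.000424 with AVS low replicate 2 out, 0.11 with AVS low replicate 4 out and 0.23 with control replicate 3 out). Medians of the 35 lists were recomputed under 11 alternatives (size factors, block, length trend removed, each library left out). All 385 values moved by less than the SD of the list's score between replicates. Leaving out 1 library of a group can hardly move a median by more than that SD, so this does not show that the medians are stable. Of the 385 values, 43 turned sign, in 13 lists with main medians from −0.08 to 0.16. The cause of the changes above was not tested. The counts of list members without each library, limma-voom and robust values per gene, leaving out libraries of AVS high, and the zona pellucida and NACHT medians were alternatives chosen after seeing the data. Genes under about 1 CPM, such as hmgcra, itgam and insig1, rest on few reads in each library, and depth limits what they can show.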
